A study of Mus musculus with 6 samples.

Results

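The proteasome is the large protease complex that degrades ubiquitin-tagged proteins, and 46 genes for its subunits, assembly factors and activators were followed here in the ventricles of ATF6α-cn, ATF6β-cn and control mice. The members are all genes on the array whose symbol begins with Psma, Psmb, Psmc, Psmd, Psme or Psmf, 46 of 21902 gene symbols, and each was read by 1 transcript cluster, the set of probes that measures one gene. They comprise 7 genes of the 20S alpha ring, 7 of the 20S beta ring, 3 immunoproteasome subunits, 2 tissue-restricted core subunits, 9 genes of the 19S base, 8 of the 19S lid, 3 chaperones of base assembly, 5 activators and the regulator PI31. The remaining member, Psmc3ip, carries the prefix but encodes a meiotic recombination factor and is no subunit. The alpha ring, beta ring, base and lid together are called the 31 constitutive 26S subunits below.

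RNA from ventricles of pure C57BL/6 mice, 8 weeks old and kept for 4 weeks without doxycycline (DOX), was measured on Clariom S mouse arrays, with 2 arrays in each of 3 groups. ATF6α-cn and ATF6β-cn mice carried a transgene for the active N-terminal part of ATF6α or ATF6β, placed behind a tetracycline-operator form of the α-myosin heavy chain promoter, together with the αMHC-tTA driver, and control mice carried that driver alone. The promoter restricts the transgene to cardiomyocytes, all groups express tTA, and DOX held the transgene off until weaning because ATF6β-cn was lethal early without it. The labels call the 2 arrays of a group biological replicates and do not give the sex of the mice.

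In the 26S proteasome, a barrel-shaped 20S core of stacked alpha and beta rings holds the proteolytic sites inside, and a 19S cap on its end, built of a base with an ATPase ring and a lid, receives ubiquitinated substrates, removes the ubiquitin and threads the unfolded chain into the core. Activators such as PA28 and PA200 can take the place of the cap, and interferon-induced subunits can replace the 3 catalytic beta subunits to form the immunoproteasome, which yields peptides suited to antigen presentation. ER-associated degradation (ERAD), a classical target of ATF6, exports misfolded proteins from the endoplasmic reticulum to this same proteasome in the cytosol. In mammals, coordinated induction of proteasome genes is known from the factor Nfe2l1, which acts at antioxidant response elements (ARE).

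Promoter sequences are shown for the letters that mark known binding elements of ATF6, of Nfe2l1-type factors and of interferon-regulated factors. RefSeq promoters (GRCm38.p6, 250 bases before to 50 bases after the annotated start) were matched for 39 of the 46 members, and 7 motifs were searched on both strands, all chosen after results of these data were known. The ER stress element (ERSE, CCAAT and CCACG with 9 bases between) occurred in 0 of the 39 member promoters, against 0.137% of all 27025 promoters in the table. ERSE-II (ATTGG and CCACG with 1 base between) occurred in 0 of 39, against 0.0444%, and the site TGACGTGG in 0 of 39, against 0.714%. Any of these 3 occurred in 0.884% of all promoters, so that a count of 0 among 39 is near that background. Among 12 ERAD genes with a promoter, 5 (41.7%) held one of the 3, a comparison added after the members had been searched. The motifs are known ATF6 elements and ERAD a classical ATF6 target, so this share is no independent result of these data. The following windows show 3 of these 5 genes, with the motif in capitals, each on the strand of its gene. Hspa5 (BiP, the main ER chaperone) is at chr2:34772004-34772064 on the plus strand with an ERSE, Herpud1 (an ERAD scaffold) at chr8:94386356-94386408 on the plus strand with an ERSE-II, and Derl3 (derlin 3, a channel component of ERAD) at chr10:75893221-75893281 on the plus strand with an ERSE in reverse.
Hspa5: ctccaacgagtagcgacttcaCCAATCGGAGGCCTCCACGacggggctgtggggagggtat
Herpud1: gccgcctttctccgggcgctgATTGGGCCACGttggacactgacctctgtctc
Derl3: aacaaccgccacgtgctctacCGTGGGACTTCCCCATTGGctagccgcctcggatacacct

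The ARE core (TGACNNNGC) occurred in 6 of the 39 member promoters (15.4%), close to its 14% among all promoters. These members were Psmb5, Psmb6, Psmc6, Psmd12, Psme4 and Psmd9, and the first 5 of these windows are shown with the core in capitals. Psmb5 is at chr14:54618013-54618063 on the minus strand, Psmb6 at chr11:70525327-70525377, Psmc6 at chr14:45329576-45329626, Psmd12 at chr11:107479278-107479310 and Psme4 at chr11:30771747-30771797, the last 4 on the plus strand. In Psmc6, Psmd12 and Psme4 the core reads on the other strand.
Psmb5: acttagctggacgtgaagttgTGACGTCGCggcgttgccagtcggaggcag
Psmb6: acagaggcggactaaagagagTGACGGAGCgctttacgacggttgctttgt
Psmc6: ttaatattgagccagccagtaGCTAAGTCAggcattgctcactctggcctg
Psmd12: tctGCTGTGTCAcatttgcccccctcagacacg
Psme4: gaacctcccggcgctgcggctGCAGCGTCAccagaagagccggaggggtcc

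The core of the interferon-stimulated response element (GAAA and GAAA with 2 bases between) occurred in 4 of 39 member promoters (10.3%), against 3.99% of all promoters, namely those of Psmd4, Psmd9, Psmb3 and Psme1. The window of Psme1, an interferon-inducible activator subunit, lies at chr14:55578482-55578533 on the plus strand and holds the core in reverse, in capitals. The cyclic AMP response element TGACGTCA occurred in 0 of 39 (2.03% of all promoters) and CCAAT, which is also part of both ER stress elements, in 15 of 39 (38.5%, against 41.1%). A match describes letters in this window and does not show that a factor binds there.
Psme1: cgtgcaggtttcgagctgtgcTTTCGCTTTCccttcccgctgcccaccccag

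The deposited values are log2 signals, and array medians lay between 5.58 and 5.64. Atf6b read 14.80 and 14.81 on the ATF6β-cn arrays, against 8.72 and 8.63 in control, a log2 fold change of 6.12 (standard error 0.24). Atf6 read 12.70 and 13.07 in ATF6α-cn, 12.25 and 11.94 in ATF6β-cn, and 13.09 and 13.04 in control. Its log2 fold change in ATF6β-cn was −0.97 (limma adjusted p = 0.11). The position of the Atf6 probes relative to the transgene was not known, so that this gene did not check the ATF6α-cn label. The paper reports raised Atf6 message in the ATF6α-cn line by qPCR. Cardiomyocyte markers were present on all 6 arrays, with a mean log2 signal of 18.18 and 18.35 in ATF6α-cn, 18.12 and 18.13 in ATF6β-cn, and 18.04 and 17.98 in control over 10 genes. Their median log2 fold change was 0.02 in each line, and none of the 10 was called. Nppa had the highest, 2.18 in ATF6α-cn and 1.57 in ATF6β-cn, and Myl3 the lowest, −0.17 and −0.42. Endothelial markers (7 genes) had means of 11.37 and 11.88 in ATF6α-cn, 11.26 and 11.33 in ATF6β-cn, and 11.29 and 11.34 in control. Their median log2 fold change was 0.34 for ATF6α-cn and −0.02 for ATF6β-cn. For smooth muscle and pericyte markers (7 genes) these medians were 0.02 and 0.05, and for 2 red blood cell markers −0.15 and −0.59. None of these markers was called against control. Fibroblast markers (7 genes) had means of 10.67 and 11.25 in ATF6α-cn, 10.80 and 11.48 in ATF6β-cn, and 10.69 and 10.65 in control. The median log2 fold change of the fibroblast markers was 0.14 for ATF6α-cn and 0.61 for ATF6β-cn. In ATF6β-cn 5 of 7 were above control on both arrays, as were 4687 of all 22206 clusters, and none of the 7 was called. Their part in the lower proteasome values of ATF6β-cn was not tested. In whole ventricle, fewer cells of a type and less RNA per cell cannot be told apart. Of the 46 members, 44 had a mean signal above 5.03 in at least 1 group, a background level under which 95% of 1455 receptor genes of olfactory and vomeronasal neurons lay.

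No member passed the test in ATF6α-cn against control, yet nearly all had a lower mean there. With limma over 22206 clusters and Benjamini-Hochberg adjustment, 0 of 46 members were called at an adjusted p under 0.05 (smallest adjusted p = 0.530), beside 0.0946% of all clusters called up and 0% called down. At an unadjusted p under 0.05, 2 members were lower (Psmb8 and Psmd4, 4.35%), a share close to the 4.48% of all clusters. The log2 fold change was negative for 43 of 46 members, against 53.3% of all clusters, and its median was −0.28, against −0.03 over all clusters. Both ATF6α-cn arrays lay below both control arrays for 26 members (56.5%), against 21.6% of all clusters, and none had both above (17.9% of all clusters).

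In ATF6β-cn against control most members again had a lower mean, and no member passed the adjusted threshold. The limma test called 0 of 46 (smallest adjusted p = 0.140, for Psma7), beside 0.793% of all clusters called up and 0.306% called down. Unadjusted p was under 0.05 for 17 members, all lower (37%), against 7.14% of all clusters lower at that threshold. The log2 fold change was negative for 39 of 46 (51.9% of all clusters), the median was −0.32 (−0.02 over all clusters), and both ATF6β-cn arrays lay below both control arrays for 31 members (67.4%), against 23.3% of all clusters. A limma fit whose prior variance followed signal strength, with robust estimation, called 5 members down in ATF6β-cn (10.9%, against 1.39% of all clusters). These were Psme1 (adjusted p = 0.0148), Psmd12 (adjusted p = 0.0287), Psma3 (adjusted p = 0.0352), Psmd1 (adjusted p = 0.0365) and Psma7 (adjusted p = 0.0367). Student's t-test on the same values called none after adjustment in either line.

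**Figure D1:**
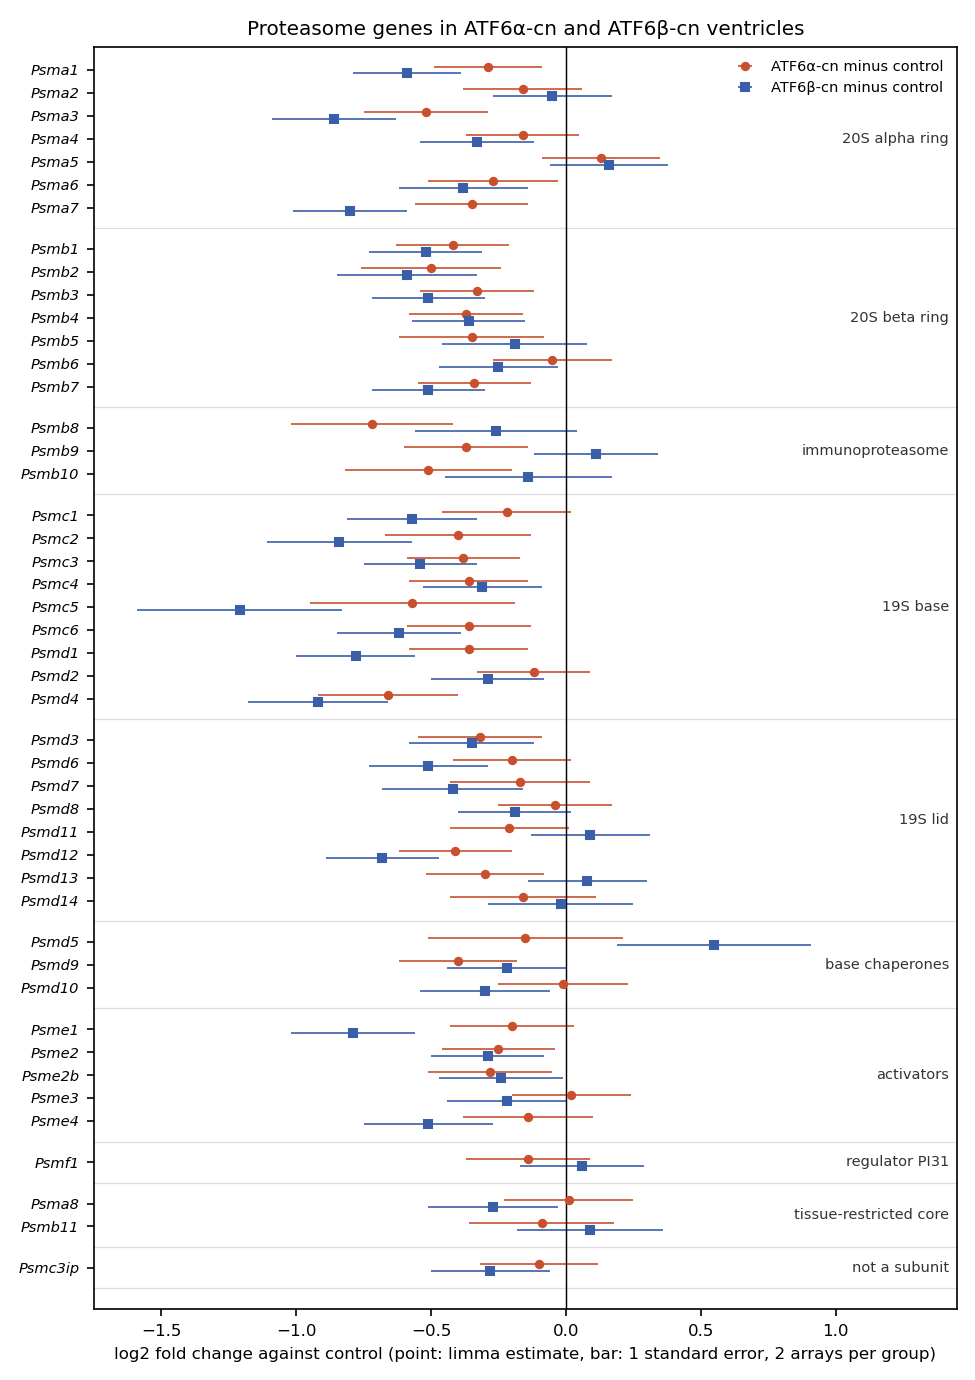
Log2 fold change of each of the 46 genes in ATF6α-cn (circles) and ATF6β-cn (squares) against the same 2 control arrays, with bars of 1 standard error from limma. Most points lie left of 0, with medians of −0.28 in ATF6α-cn and −0.32 in ATF6β-cn, and the lowest is Psmc5 in ATF6β-cn at −1.21.

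The 31 constitutive 26S subunits, which make up most of the members, held about their proportionate part of the negative values. In ATF6α-cn 30 of these 31 had a negative log2 fold change with a median of −0.33, a change of −20.6%. In ATF6β-cn 28 of 31 were negative with a median of −0.51, a change of −29.6%. Both arrays of the line lay below both control arrays for 20 of the 31 in ATF6α-cn (64.5%, against 21.6% of all clusters). In ATF6β-cn this held for 25 of the 31 (80.6%, against 23.3%), and both lines are read against the same 2 control arrays. Unadjusted p was under 0.05 and the value lower for 16 of the 31 in ATF6β-cn (51.6%, against 7.14% of all clusters). Among clusters with a mean log2 signal of at least 10 that share was 13.3%. The count of 16 depends on single arrays and was smaller without any 1 control or ATF6β-cn array.

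Clusters with strong signals were compared separately, a choice made after the data were seen, because strongly expressed genes were more often lower in both lines. Among 3530 clusters with a mean log2 signal of at least 10, both ATF6α-cn arrays lay below both control arrays for 30.8% and both ATF6β-cn arrays for 37.2%. The 31 members at that signal (not the same 31 genes as the constitutive subunits) had shares of 64.5% in ATF6α-cn and 90.3% in ATF6β-cn. Their median log2 fold changes were −0.30 in ATF6α-cn and −0.51 in ATF6β-cn, against −0.07 and −0.06 over all 3530. In the other direction, both arrays lay above both control arrays for 689 of the 3530 in ATF6α-cn and 942 in ATF6β-cn. Over all 22206 clusters these counts were 3964 and 4687, and among the 31 members they were 0 in both lines.

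**Figure D2:**
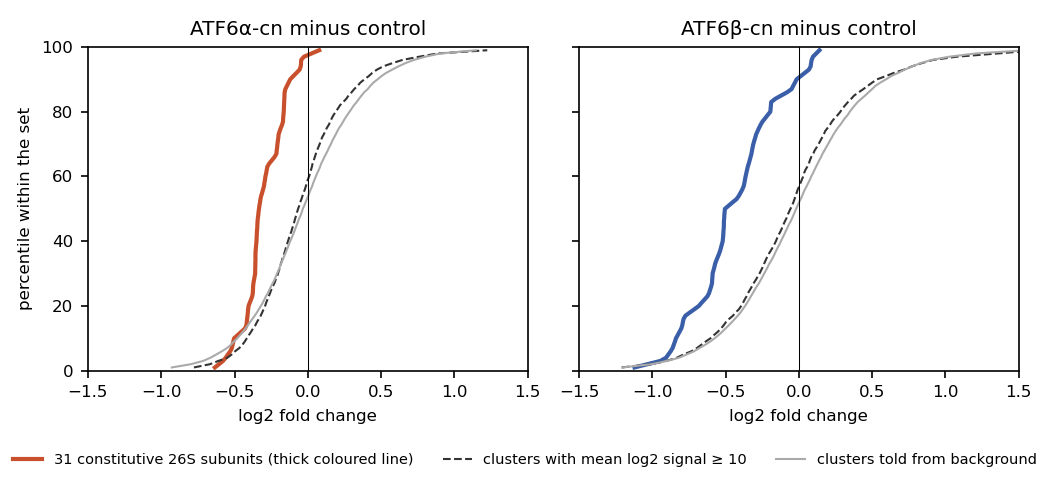
Cumulative distribution of log2 fold changes against control in ATF6α-cn (left) and ATF6β-cn (right) for the 31 constitutive 26S subunits (thick), clusters with a mean log2 signal of at least 10 (dashed) and clusters told from background (thin). The subunits cross the 50th percentile at −0.33 in ATF6α-cn and −0.51 in ATF6β-cn, left of both other curves.

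On single arrays the control values stood highest in most classes. The median over the 31 constitutive subunits of the log2 signal, taken relative to each gene's mean over 6 arrays, was −0.01 and −0.10 on the ATF6α-cn arrays, −0.23 and −0.14 on the ATF6β-cn arrays, and 0.26 and 0.25 on the control arrays. Both control arrays therefore lay above all 4 transgenic arrays, and the ATF6β-cn arrays lay below those of ATF6α-cn. Over the 13474 clusters told from background the same measure stayed between −0.02 and 0.02 on all arrays. Array medians were nearly equal as deposited, which keeps this last measure small, so it is no separate contrast to the subunits.

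**Figure D3:**
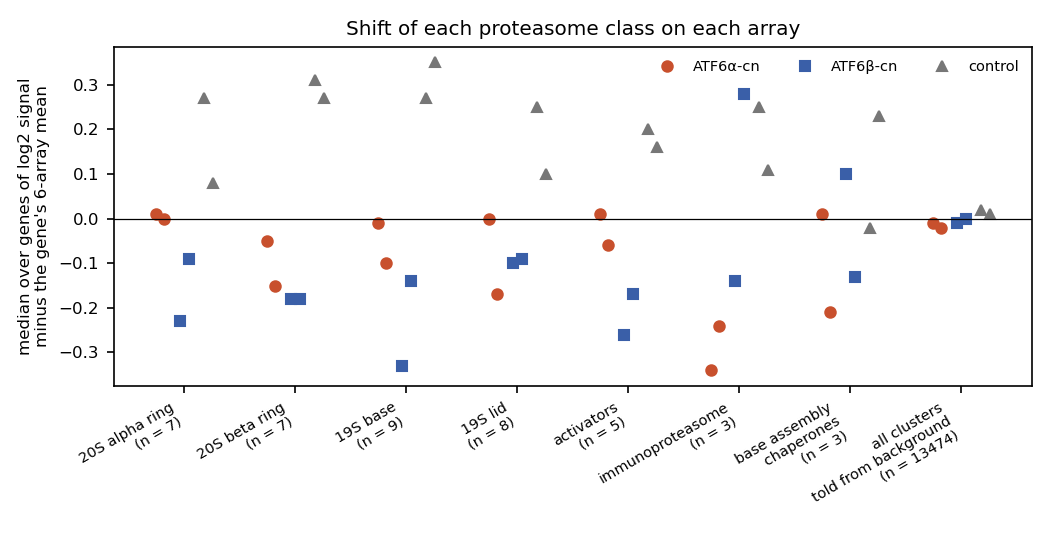
Median over the genes of each class of log2 signal minus the gene's mean over 6 arrays, 1 point per array, for ATF6α-cn (circles), ATF6β-cn (squares) and control (triangles). In the base, lid, beta ring, alpha ring and activators all control points lie above all transgenic points, while in the immunoproteasome an ATF6β-cn array reaches 0.28.

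The alpha ring gates the entrance of the core. Psma3 had the lowest log2 fold changes of the ring in both lines, with log2 signals of 11.71 and 11.54 in ATF6α-cn, 11.46 and 11.10 in ATF6β-cn, and 12.27 and 12.01 in control. All 4 transgenic arrays lay below both control arrays. ATF6α-cn differed from control by −0.52 on the log2 scale (standard error 0.23, limma adjusted p = 0.574) and ATF6β-cn by −0.86 (standard error 0.23, limma adjusted p = 0.148), a change of −45.1%. Psma7, chosen after its values were seen, read 11.23 and 11.16 in ATF6α-cn, 10.65 and 10.85 in ATF6β-cn, and 11.59 and 11.51 in control, so that the 3 groups did not overlap. Its log2 fold change in ATF6β-cn was −0.80 (95% interval −1.28 to −0.32), the smallest adjusted p of any member against control.

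Psma5, the subunit with the highest fold change of the ring, had positive values in both lines that did not pass the test. Its log2 signals were 9.54 and 9.35 in ATF6α-cn, 9.43 and 9.52 in ATF6β-cn, and 9.46 and 9.16 in control, and the groups overlapped. Across the 7 ring genes the median log2 fold change was −0.27 for ATF6α-cn and −0.38 for ATF6β-cn, with 6 of 7 negative in each line, Psma5 being the exception in both.

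The beta ring carries the 3 catalytic sites and 4 structural subunits, and all 7 genes had a negative log2 fold change in both lines as deposited. The median was −0.35 for ATF6α-cn and −0.51 for ATF6β-cn. Psmb2, a structural subunit, had the lowest values, with log2 signals of 11.43 and 12.06 in ATF6α-cn, 11.71 and 11.61 in ATF6β-cn, and 12.30 and 12.21 in control. Its 4 transgenic arrays lay below both control arrays, with log2 fold changes of −0.50 in ATF6α-cn (limma adjusted p = 0.608) and −0.59 in ATF6β-cn (limma adjusted p = 0.351).

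Of the catalytic subunits, Psmb7, which bears the trypsin-like site, read 14.43 and 14.25 in ATF6α-cn, 14.14 and 14.22 in ATF6β-cn, and 14.71 and 14.66 in control. The groups did not overlap, and its log2 fold change was −0.34 for ATF6α-cn and −0.51 for ATF6β-cn (limma adjusted p = 0.333). Psmb6, with the caspase-like site, read 12.80 and 12.47 in ATF6α-cn, 12.35 and 12.51 in ATF6β-cn, and 12.70 and 12.67 in control. Here the ATF6α-cn arrays lay on both sides of control and the log2 fold change was −0.05, turning to 0.01 under quantile normalization, while in ATF6β-cn both arrays were below control at −0.25 (95% interval −0.76 to 0.25). Psmb5, with the chymotrypsin-like site, shares its cluster with the microRNA gene Mir686 and read 9.61 and 9.38 in ATF6α-cn, 9.48 and 9.81 in ATF6β-cn, and 9.54 and 10.14 in control. The higher control array of Psmb5 lay well above the lower one, and all groups overlapped.

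The 3 immunoproteasome subunits were below control on both ATF6α-cn arrays and overlapped control in ATF6β-cn. Each replaces 1 catalytic subunit when cells respond to interferon, and leukocytes express them constitutively. Psmb8, which replaces Psmb5, read 7.25 and 6.55 in ATF6α-cn, 7.16 and 7.57 in ATF6β-cn, and 7.84 and 7.40 in control. Its log2 fold change of −0.72 in ATF6α-cn was the lowest of all members in that line (standard error 0.30, unadjusted p = 0.0418, limma adjusted p = 0.549), while in ATF6β-cn it was −0.26 with overlapping arrays.

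Psmb9, which replaces Psmb6, read 6.26 and 6.37 in ATF6α-cn, 7.01 and 6.59 in ATF6β-cn, and 6.75 and 6.63 in control. Psmb10, which replaces Psmb7, read 8.51 and 8.61 in ATF6α-cn, 8.45 and 9.41 in ATF6β-cn, and 9.11 and 9.04 in control. In ATF6α-cn both arrays were below both control arrays for all 3 subunits (21.6% of all clusters), with a median log2 fold change of −0.51. In ATF6β-cn this held for none of the 3 (23.3% of all clusters), with a median of −0.14. The median for ATF6β-cn was −0.46 without ATF6β-cn replicate 2, the array on which Psmb10 read 9.41.

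Set directly against each other, ATF6β-cn exceeded ATF6α-cn by a median log2 difference of 0.47 over the 3 immunoproteasome subunits, and none passed the test. The difference was 0.49 for Psmb9 (standard error 0.23, limma adjusted p = 0.562), the only one of the 3 whose ATF6β-cn arrays both lay above both ATF6α-cn arrays. It was 0.47 for Psmb8 (limma adjusted p = 0.687) and 0.37 for Psmb10 (limma adjusted p = 0.778). Leukocyte markers, 11 of 16 told from background, had a mean log2 signal of 6.66 and 7.04 in ATF6β-cn, 6.71 and 6.72 in ATF6α-cn, and 6.77 and 6.77 in control, and 0 of 16 were called in any comparison. The array with the high leukocyte mean of 7.04 is that with the higher ATF6β-cn signal of Psmb10 and Psmb8, but with the lower one of Psmb9. The part of leukocyte RNA in these values was not tested.

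**Figure D4:**
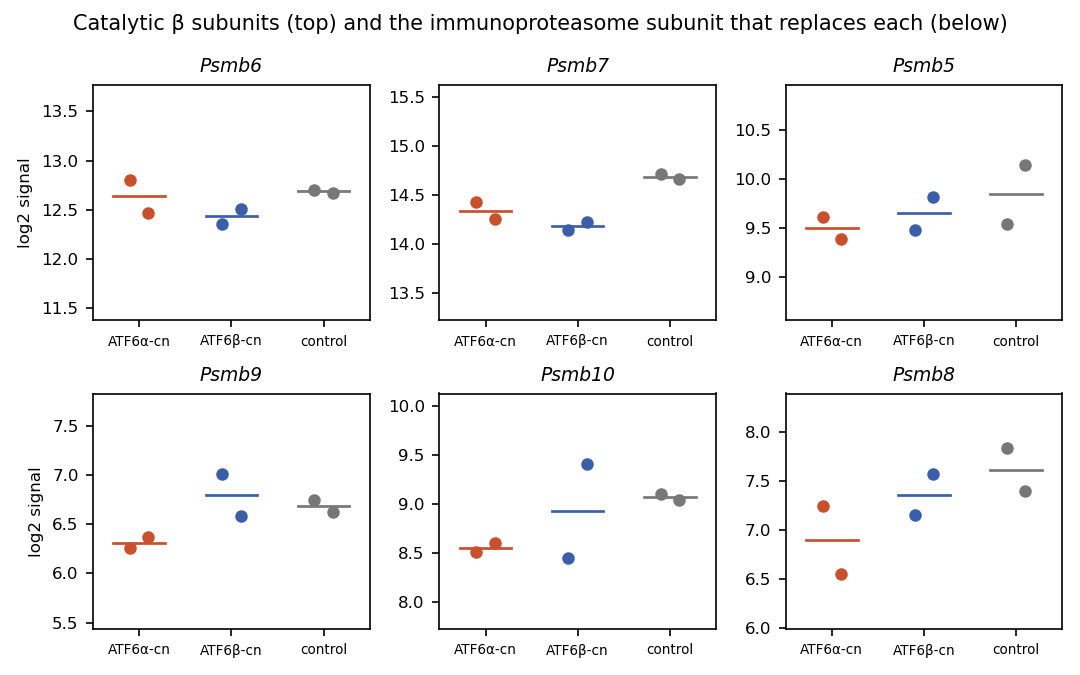
Log2 signal on each array (points) and group mean (line) of the 3 catalytic beta subunits (top) and the immunoproteasome subunit that replaces each (bottom), all panels spanning the same range. Psmb7 is lower on all transgenic arrays, whereas Psmb9, Psmb10 and Psmb8 lie below both control arrays in ATF6α-cn and overlap control in ATF6β-cn, with Psmb10 at 8.45 and 9.41 in ATF6β-cn.

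The 19S base had the lowest class median in ATF6β-cn among the classes of the constitutive 26S proteasome. It holds the 6 ATPases Psmc1 to Psmc6 that unfold substrates, the scaffolds Psmd1 and Psmd2, and the ubiquitin receptor Psmd4. All 9 genes had a negative log2 fold change in both lines, with a median of −0.36 in ATF6α-cn and −0.62 in ATF6β-cn. Both ATF6β-cn arrays lay below both control arrays for all 9 genes (23.3% of all clusters), and both ATF6α-cn arrays for 7 of the 9 (21.6% of all clusters).

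Psmd4 read 10.32 and 10.13 in ATF6α-cn, 9.71 and 10.23 in ATF6β-cn, and 11.10 and 10.68 in control. Every transgenic array was below both control arrays. The log2 fold change was −0.66 in ATF6α-cn (95% interval −1.26 to −0.06, limma adjusted p = 0.530), the lowest of the base there, and −0.92 in ATF6β-cn (95% interval −1.51 to −0.32, limma adjusted p = 0.165).

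Psmc5, an ATPase, had the lowest fold change of all members, but its ATF6β-cn arrays lay far apart. It read 9.77 and 9.31 in ATF6α-cn, 9.49 and 8.32 in ATF6β-cn, and 10.36 and 9.87 in control. ATF6β-cn differed from control by −1.21 on the log2 scale (standard error 0.38, limma adjusted p = 0.211), where 1 array was near the ATF6α-cn values and the other well below. Psmd2 had the smallest difference of the base, with 13.45 and 13.51 in ATF6α-cn, 13.22 and 13.40 in ATF6β-cn, and 13.68 and 13.52 in control, with a log2 fold change of −0.12 for ATF6α-cn and of −0.29 for ATF6β-cn.

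Among base genes chosen after their values were seen, Psmd1 had close replicates within each transgenic line and a wider spread in control. It read 12.36 and 12.26 in ATF6α-cn, 11.94 and 11.84 in ATF6β-cn, and 12.49 and 12.85 in control, so that the groups did not overlap, with a log2 fold change of −0.78 in ATF6β-cn (standard error 0.22, limma adjusted p = 0.165). Psmc2 had a log2 fold change of −0.84 in ATF6β-cn and −0.40 in ATF6α-cn, and 1 ATF6α-cn array lay above the lower control array. Psmc6, whose ARE core is printed above, had −0.62 in ATF6β-cn and −0.36 in ATF6α-cn.

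The lid, which removes ubiquitin chains before degradation, was mixed in ATF6β-cn. Its 8 genes had a median log2 fold change of −0.20 in ATF6α-cn, all 8 negative, and of −0.27 in ATF6β-cn, 6 negative. Psmd12, a scaffold subunit of the lid, read 13.30 and 13.22 in ATF6α-cn, 12.97 and 13.01 in ATF6β-cn, and 13.66 and 13.69 in control. Replicates lay close together and the groups did not overlap, with log2 fold changes of −0.41 in ATF6α-cn (limma adjusted p = 0.600) and −0.68 in ATF6β-cn (standard error 0.21, limma adjusted p = 0.184).

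Psmd11, a lid subunit known from human cells to favour assembly of the 26S particle, had the highest lid value in ATF6β-cn. Its log2 signals were 11.76 and 11.55 in ATF6α-cn, 12.04 and 11.86 in ATF6β-cn, and 11.80 and 11.92 in control, and ATF6β-cn overlapped control. Psmd8 had the highest lid value in ATF6α-cn, with 11.83 and 11.82 in ATF6α-cn, 11.65 and 11.72 in ATF6β-cn, and 11.93 and 11.81 in control. Psmd14, the deubiquitinase of the lid, had log2 fold changes of −0.16 in ATF6α-cn and −0.02 in ATF6β-cn (95% interval −0.64 to 0.60), with overlapping arrays, and Psmd13 had −0.30 in ATF6α-cn and 0.08 in ATF6β-cn.

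**Figure D5:**
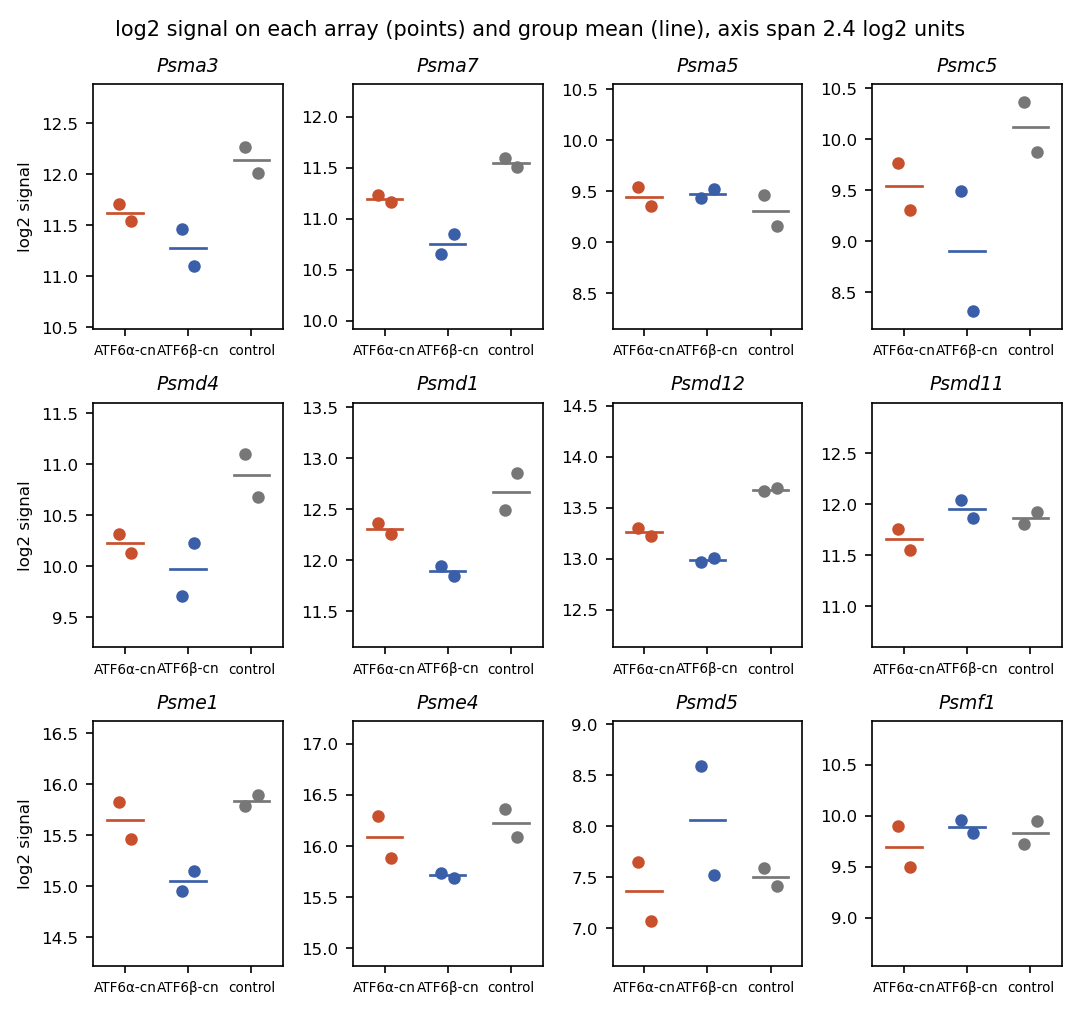
Log2 signal on each array (points) and group mean (line) of 12 members, all panels spanning the same range, with ATF6α-cn, ATF6β-cn and control from left to right. Psma3, Psma7, Psmd1, Psmd12 and Psmd4 are lower on all transgenic arrays, Psme1 and Psme4 are lowest in ATF6β-cn, Psma5, Psmd5 and Psmf1 overlap control in both lines, and Psmd11 overlaps it in ATF6β-cn.

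The chaperones that assemble the base gave values on both sides of 0. Psmd5 read 7.65 and 7.07 in ATF6α-cn, 8.59 and 7.52 in ATF6β-cn, and 7.59 and 7.41 in control, and its log2 fold change of 0.55 in ATF6β-cn (95% interval −0.26 to 1.37) was the highest of any member, with 1 ATF6β-cn array above control and the other between the control arrays. Psmd9 read 6.58 and 6.54 in ATF6α-cn, 6.85 and 6.61 in ATF6β-cn, and 6.83 and 7.08 in control, with both ATF6α-cn arrays below control at −0.40 (limma adjusted p = 0.636). Psmd10 (gankyrin) read 8.68 and 8.76 in ATF6α-cn, 8.65 and 8.21 in ATF6β-cn, and 8.60 and 8.85 in control. All groups of Psmd10 overlapped control.

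For 5 of 5 activators both ATF6β-cn arrays lay below both control arrays, against 23.3% of all clusters, with a median log2 fold change of −0.29. For Psme2b this rested on 9.96 in ATF6β-cn against 9.97 in control. In ATF6α-cn 4 of 5 were negative with a median of −0.20. Psme1, which with Psme2 forms the interferon-inducible PA28 cap, read 15.83 and 15.46 in ATF6α-cn, 14.95 and 15.15 in ATF6β-cn, and 15.79 and 15.89 in control. The log2 fold change of Psme1 was −0.79 in ATF6β-cn (standard error 0.23, limma adjusted p = 0.169) or −42.1%, and −0.20 in ATF6α-cn with 1 array among the control values.

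Its partner Psme2 had log2 fold changes of −0.25 in ATF6α-cn and −0.29 in ATF6β-cn. Psme2b, whose sequence is close to that of Psme2 so that its probes may read both, had 9.62 and 9.85 in ATF6α-cn, 9.58 and 9.96 in ATF6β-cn, and 9.97 and 10.05 in control, all transgenic arrays lying below control. Psme3, the nuclear PA28 gamma, read 11.67 and 11.97 in ATF6α-cn, 11.56 and 11.61 in ATF6β-cn, and 11.85 and 11.76 in control, with the highest log2 fold changes among the activators, 0.02 in ATF6α-cn and −0.22 in ATF6β-cn. Psme4 (PA200), chosen after its values were seen, read 16.29 and 15.88 in ATF6α-cn, 15.74 and 15.69 in ATF6β-cn, and 16.36 and 16.09 in control, a log2 fold change of −0.51 in ATF6β-cn (95% interval −1.05 to 0.03).

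The regulator and the tissue-restricted subunits overlapped control in both lines. Psmf1, the proteasome-binding protein PI31, read 9.90 and 9.50 in ATF6α-cn, 9.96 and 9.83 in ATF6β-cn, and 9.72 and 9.95 in control. Psma8, an alpha subunit of testis, lay at 3.99 and 3.94 in ATF6α-cn, 3.46 and 3.90 in ATF6β-cn, and 4.06 and 3.84 in control. Psmb11, the beta subunit of thymic epithelium, lay at 4.01 and 3.77 in ATF6α-cn, 3.74 and 4.39 in ATF6β-cn, and 4.11 and 3.84 in control. Both tissue-restricted genes were under the background of 5.03 in every group, and Psmc3ip had log2 fold changes of −0.10 in ATF6α-cn and −0.28 in ATF6β-cn.

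The paper states that the transgenes were expressed at unequal levels, which did not allow the factors to be compared directly. Differences given here are therefore between the lines and not between the factors. In the direct comparison of ATF6β-cn with ATF6α-cn, 0 of 46 members were called by limma (smallest adjusted p = 0.449), beside 0.221% of all clusters called up and 0.0495% called down. One member, Psme1, had an unadjusted p under 0.05, with a log2 difference of −0.59 (standard error 0.23, unadjusted p = 0.0307), and the 1 of 46 (2.17%) is less than the 4.37% of all clusters. The log2 difference was negative for 30 members (49.6% of all clusters), with a median of −0.16 (0 over all clusters), and both ATF6β-cn arrays lay below both ATF6α-cn arrays for 21 members (45.7%, against 19.4%). The median was −0.26 in the base, −0.23 in the activators, −0.16 in the alpha ring, −0.10 in the beta ring and −0.08 in the lid. A moderated F test over the 3 groups called 0 of 46 members, beside 0.689% of all clusters, and 8 members had an unadjusted p under 0.05, beside 12.7% of all clusters.

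Genes that work with the proteasome but lie outside the prefixes also gave no call. Of 15 measured partners and assembly factors, 0 passed in any comparison, and the median log2 fold change was −0.25 for ATF6α-cn and −0.17 for ATF6β-cn. Uchl5, a deubiquitinase of the cap, read 10.16 and 9.81 in ATF6α-cn, 9.25 and 9.74 in ATF6β-cn, and 10.28 and 10.10 in control, a log2 fold change of −0.70 in ATF6β-cn (limma adjusted p = 0.266). Usp14, another deubiquitinase of the cap, had −0.47 in ATF6α-cn and −0.17 in ATF6β-cn. Nfe2l1, the inducer of proteasome genes named above and chosen after its value was seen, had −0.25 in ATF6α-cn (95% interval −0.76 to 0.25) and 0.20 in ATF6β-cn (95% interval −0.31 to 0.70).

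Upstream of the proteasome, 0 of 14 genes for ubiquitin, its activating enzymes and shuttle factors were called, with medians of −0.19 in ATF6α-cn and −0.23 in ATF6β-cn. Uba6, a ubiquitin-activating enzyme, read 9.33 and 9.47 in ATF6α-cn, 10.60 and 10.58 in ATF6β-cn, and 10.01 and 9.18 in control, with ATF6β-cn above control (95% interval of the log2 difference 0.34 to 1.65, limma adjusted p = 0.167). Vcp, the ATPase that pulls ERAD substrates out of the membrane, read 14.06 and 13.49 in ATF6α-cn, 13.13 and 13.30 in ATF6β-cn, and 13.06 and 12.72 in control (0.88 for ATF6α-cn, limma adjusted p = 0.410). Both genes thus had higher values where most subunits had lower ones, without passing the test. Of 9 cardiac ubiquitin ligases 0 were called, with medians of −0.07 in ATF6α-cn and −0.29 in ATF6β-cn. Cul3, a ligase scaffold, read 13.37 and 13.20 in ATF6α-cn, 13.22 and 13.15 in ATF6β-cn, and 13.69 and 13.72 in control, a log2 difference of −0.53 for ATF6β-cn (limma adjusted p = 0.312), and Trim54, a muscle ligase, had −0.52 there (limma adjusted p = 0.358). Of 16 genes of MHC class I presentation and the interferon response, none was called in ATF6α-cn, beside 0.0946% of all clusters called up and 0% called down. In ATF6β-cn 1 of the 16 was called down, beside 0.306% of all clusters. It was Ifit1, an interferon-induced antiviral gene, with 6.52 and 6.34 in ATF6α-cn, 5.79 and 5.82 in ATF6β-cn, and 6.99 and 6.93 in control (−1.15 for ATF6β-cn, limma adjusted p = 0.0436, and −0.53 for ATF6α-cn, limma adjusted p = 0.531). Cxcl9, an interferon-induced chemokine named after its values were seen, had the lowest log2 fold changes of the list, −1.16 for ATF6α-cn (limma adjusted p = 0.466) and −1.45 for ATF6β-cn (limma adjusted p = 0.161), with all transgenic arrays below control.

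ERAD genes, which deliver substrates to the proteasome, included rises on the same arrays. Of 16 measured, 3 rose in ATF6α-cn (Derl3, Sel1l and Hspa5), beside 0.0946% of all clusters called up. In ATF6β-cn 6 rose (these and Syvn1, Herpud1 and Os9), beside 0.793% of all clusters called up. None fell against control, and the median log2 fold change was 0.32 for ATF6α-cn and 0.65 for ATF6β-cn. Derl3 read 11.32 and 10.89 in ATF6α-cn, 7.02 and 7.27 in ATF6β-cn, and 4.96 and 4.86 in control. It rose by 6.19 on the log2 scale in ATF6α-cn (limma adjusted p = 3.64e-05) and by 2.24 in ATF6β-cn (limma adjusted p = 0.00487), and its control signal lay under the background. Directly compared, Derl3 was lower in ATF6β-cn than in ATF6α-cn, by −3.95 on the log2 scale (limma adjusted p = 0.000272).

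Hspa5 read 19.03 and 18.73 in ATF6α-cn, 18.54 and 18.54 in ATF6β-cn, and 17.25 and 17.08 in control. It rose by 1.72 in ATF6α-cn (limma adjusted p = 0.0370) and by 1.38 in ATF6β-cn (limma adjusted p = 0.0260). Sel1l, the ERAD ligase adaptor, with 12.75 and 12.66 in ATF6α-cn, 12.00 and 12.02 in ATF6β-cn, and 9.92 and 10.60 in control, rose in both lines. The lectin Os9, with 10.73 and 10.10 in ATF6α-cn, 11.23 and 11.38 in ATF6β-cn, and 9.26 and 9.75 in control, rose in ATF6β-cn (limma adjusted p = 0.0252). On the same scale the highest log2 fold change of any constitutive 26S subunit was 0.13 for ATF6α-cn and 0.16 for ATF6β-cn, both for Psma5, and neither passed the test.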

How the data were processed

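The authors deposited log2 signals, 1 value per probe set and array, with nearly equal array medians. Affymetrix Expression Console is named in the submitters' notes, while background correction and probe summary were not given in the sources used here. Deposited sheets of fold changes and p-values against control hold the authors' own comparisons and served only to give gene symbols. Of 28846 probe sets 6640 controls were left out. R 4.3.3 with limma 3.58.1 fitted 1 mean per group over 6 arrays (3 residual and 5.63 prior degrees of freedom), with Benjamini-Hochberg adjustment over 22206 clusters, and the fit was tested on simulated data beforehand. With 2 arrays per group a permutation test cannot go below p = 0.333, and the number of arrays limits the precision, since arrays give no read depth. Members, gene lists, motifs and windows were chosen with earlier results of these data known. Named by rule were the members with the highest and lowest fold change of each class in each line, the immunoproteasome subunits and the catalytic subunits they replace, Psmf1, the tissue-restricted subunits, and in other lists up to 4 called genes or the 2 with the largest change. Alternatives were other scaling, a filter on dim clusters, a variance trend with a robust prior, array weights, a replicate block, 4 arrays per comparison, each array left out, unadjusted p, Student's t-test and other choices of clusters.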

Additional observations from a re-analysis of the deposited data

How the results depend on the processing

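The count of 0 called members held in all 3 comparisons under quantile normalization, median centring, the filter on dim clusters, array weights, fits on 4 arrays, clusters of 1 gene and without any single array (0 to 0), and the ATF6β-cn count became 5 and the F test count 1 with a variance trend and a robust prior. At unadjusted p under 0.05 limma gave 2 members in ATF6α-cn, 17 in ATF6β-cn, 1 in ATF6β-cn against ATF6α-cn and 8 by the F test, and the methods' t-test, unadjusted, gave 9 in ATF6α-cn, 13 in ATF6β-cn and 3 between the lines, and 0 after adjustment. The share of all clusters was not counted for the unadjusted t-test or for the F test with a variance trend. Whether these member counts exceed that share is therefore not known. Leaving out each array gave a median log2 fold change of the members between −0.33 and −0.25 in ATF6α-cn, between −0.42 (without ATF6β-cn replicate 2) and −0.32 in ATF6β-cn, where it was −0.40 without control replicate 2, and between −0.16 and −0.09 (without ATF6β-cn replicate 1) for ATF6β-cn against ATF6α-cn. Over the 31 constitutive 26S subunits these ranges were −0.34 to −0.31 in ATF6α-cn and −0.52 to −0.41 in ATF6β-cn. Quantile normalization gave medians of −0.26 in ATF6α-cn and −0.30 in ATF6β-cn and turned the sign of 3 of 138 member values, each of at most 0.05, including Psmb6 in ATF6α-cn. Without Psmc3ip, Psma8 and Psmb11, an alternative chosen after seeing the data, the medians were −0.30 in ATF6α-cn and −0.35 in ATF6β-cn. With the replicate number as a block 0 members were called and the medians stayed −0.28, −0.32 and −0.16. The labels do not say that a number pairs mice, and same-numbered arrays did not deviate together (correlations 0.01, 0.02 and −0.02 over clusters). With 2 arrays per group, the absence of calls does not show that the genes did not change.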
